A study of Mus musculus with 28 samples.

Results

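RNA-seq was analysed for the change from day 1 to day 7 of reprogramming in mouse embryonic fibroblasts (MEFs) that received p38i, the p38 MAP kinase inhibitor SB203580, during induction. The libraries were chosen by their labels alone, as the 2 of p38i day 1 and the 2 of p38i day 7, which are 4 of the 28 libraries of the series. The 2 libraries each of days 3 and 5 of the same arm were used for the course in between, so that the arm holds 8 libraries. The MEFs were primary cells of wild-type genotype from mouse embryos, here carrying the OG2 reporter, in which the Oct4 promoter drives GFP. They were infected with pMXs retroviruses for Sox2, Klf4 and Oct4 and then induced in iCD1, a chemically defined medium, with day 0 as its start. DMSO cells, named ctr in the labels, received the solvent, and pre-p38i cells received the inhibitor before the induction only. All 3 arms thus shared the factors and the medium. The vectors and the mouse genes give 1 value per gene, so the levels of Pou5f1, Sox2 and Klf4 include the transgenes. The comparison asks how expression moved over a week of induction while p38 was inhibited. Neither the labels nor the methods say that the 2 libraries of a group were separate cultures. The p-values rest on the spread between the libraries of a group, estimated over all 14 groups of the series, and this spread may be technical. Because whole cultures were sequenced, fewer cells of a type and less RNA per cell cannot be told apart.

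Fibroblasts that are reprogrammed are known to pass through a mesenchymal-to-epithelial transition: stress fibres and mesenchymal regulators are lost and E-cadherin, keratins and tight junctions are gained. The network of pluripotency genes around Nanog, Esrrb and Sall4 is switched on later. p38 is a kinase that responds to stress and acts through kinases such as MAPKAPK2 on transcription, on mRNA decay and on actin filaments.

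The deposited table gives whole numbers with sums of 991575 to 992123 in the 8 libraries of the arm, and they were read as a measure of each transcript's share of its library that is scaled for gene length, like TPM. They are called values here and have no other unit. The depth of each library is unknown, so no counting interval or detection floor is given, and a value of 0 is reported as listed at 0. Differences are on the log2(value + 1) scale, which understates the change of low genes, with the standard error (SE) of the model. A gene is said to have risen or fallen where limma gave an adjusted p-value under 0.05 over the 13230 genes tested, and both values are given in the order of the replicates. An exact permutation test of 2 libraries against 2 cannot go below 0.333. In the arm, between 12934 and 13861 genes per library reached a value of at least 1, with 12934 and 12982 on day 1 and 13806 and 13861 on day 7. Mitochondrial genes took 3.06% to 3.31% of a library on day 1, 6.09% to 6.18% on days 3 and 5 and 4.88% to 5.75% on day 7, and their part in the results was not tested. Replicate 2 of day 5 stood apart by ribosomal and signal recognition RNA: Rn18s-rs5 was at 16361 there and at 1035 in replicate 1.

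Over the week, 7259 of 13230 genes changed in the p38i arm, which is 54.9% of those tested. Of these, 4345 (32.8%) rose and 2914 (22.0%) fell. With a minimum log2 change of 1, 1748 genes (13.2%) rose and 633 (4.78%) fell. The direction of the whole depends on the scaling. After quantile normalization, which gives every library the same distribution of values, 3187 genes rose and 3891 fell, and the median of all genes moved from 0.09 to -0.07. Small changes are therefore read against these medians, and list counts under quantile normalization are given where one of them moved by 2 or more members. The list counts of the week are read beside the 32.8% of all genes that rose and the 22.0% that fell. The root mean square change over all genes was 0.977 on the log2 scale between the means of day 1 and day 7, and 0.348 to 0.399 between the single replicate libraries of a day.

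**Figure D1:**
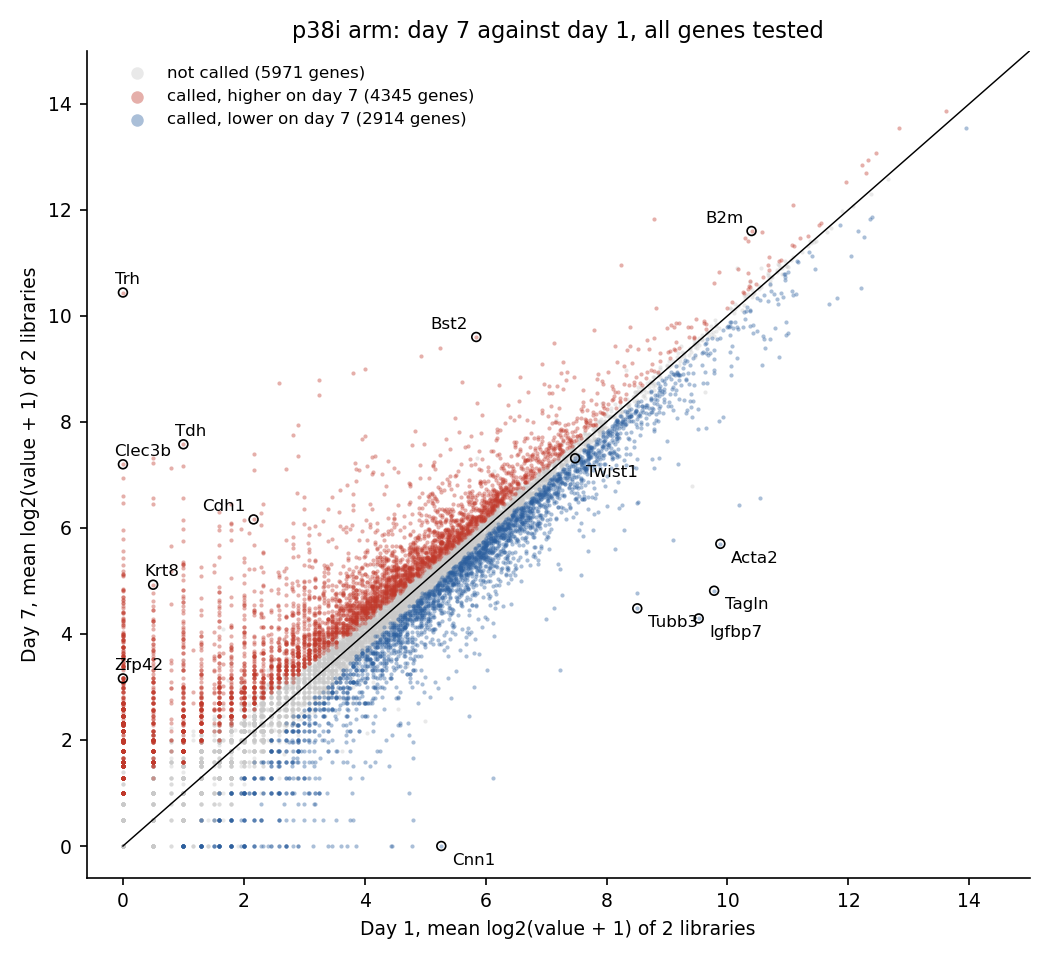
Mean log2(value + 1) of the 2 libraries of p38i day 1 (horizontal) against that of the 2 libraries of p38i day 7 (vertical), 1 point per gene for the 13230 genes tested. Red points rose (4345), blue points fell (2914) and grey points were not called; Trh, at the left edge, was listed at 0 on day 1, and Acta2, Tagln and Igfbp7 lie far below the diagonal.

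The gene that rose most was Trh, the precursor of thyrotropin-releasing hormone, at chr6:92242061-92244650 in the deposited table (mouse mm10). It was listed at 0 in both libraries of day 1, stood at 156 and 143 on day 3 and at 631 and 640 on day 5, and reached 1410 and 1366 on day 7 (limma, adjusted p = 1.59e-19). It rose in each step, and the days did not overlap. Clec3b, which encodes the plasminogen-binding protein tetranectin, was also listed at 0 on day 1 and was at 148 and 144 on day 7. Egfl6, a secreted EGF-repeat protein of basement membranes, went from 0 in both libraries to 108 and 137. Alpl, the tissue-nonspecific alkaline phosphatase used as an early marker of reprogramming colonies, went from 0 in both to 95 and 97. All 4 were listed at 0 on day 1 and were highest on day 7. Tdh, the threonine dehydrogenase that mouse pluripotent cells use, rose from 1 and 1 to 196 and 184. Pllp, the membrane protein plasmolipin, rose from 1 and 1 to 145 and 142, and it overlaps another annotated gene. The strand of the reads is not given in the sources used here, so reads of overlapping genes, here Pllp, Tagln, S100a4, Gbx2, Ccna2, Ccnd1, Ccnd2, Csf1r, Ctsa, Ctsd, Dsp, Fdft1, H2-Q4, H2-T22, Hexa, Jund, Mt2, Rn18s-rs5, Sall4, Tgtp1 and Vcl, cannot be told from those of their partners. The remaining 4 of the 10 genes that rose most were interferon-response genes, namely Oasl2, Tgtp1, Oas2 and Apol9a. Apol9a, an interferon-induced apolipoprotein L, rose from 2 and 0 to 137 and 143.

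Among the 10 that fell most, 4 were contractile genes (Tagln, Acta2, Acta1 and Cnn1), described with their list. Igfbp7, a secreted protein that binds insulin-like growth factors and lies at chr5:77349240-77408041, fell from 729 and 742 to 23 and 15 (log2 change -5.23, SE 0.13, limma adjusted p = 8.54e-17). Its level was 38.7 times higher on day 1, and it fell in each step of the course, with 111 and 109 on day 3. Tubb3, a beta-tubulin best known from neurons, fell from 344 and 383 to 24 and 19, with the largest part of the fall by day 3, when it was at 42 and 44. It was low in all 6 libraries from day 3 on. Fmod, the collagen-binding proteoglycan fibromodulin, stood at 22 and 20 on day 1 and was listed at 0 in both libraries of day 7. U90926 and Lce1h went the same way, from 24 and 29 and from 21 and 20 to 0. Each of the 20 genes that moved most was called in 11 of 11 alternative settings.

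The epithelial list rose. Of its 36 genes 30 were tested, 21 rose and 0 fell, with a median log2 change of 1.89 (1.79 without the 9 members listed at 0 on a day). Across all genes 32.8% rose, with a median of 0.09. After quantile normalization 19 rose and 3 fell. Cdh1, the E-cadherin of adherens junctions, stood at 3 and 4 on day 1, 14 and 12 on day 3, 36 and 32 on day 5 and then 71 and 70 on day 7. It rose in each step and was 20.1 times higher at the end (log2 change 4.00, SE 0.10, limma adjusted p = 3.14e-17). Epcam, the epithelial cell adhesion molecule, rose from 1 and 0 through 6 and 5, then 30 and 28, to 98 and 89. Krt8, a keratin of simple epithelia, was at 0 and 1 on day 1, at 1 and 2 on day 3 and at 6 and 8 on day 5, and reached 31 and 28 on day 7. Spint2, an inhibitor of membrane serine proteases, rose from 23 and 17 to 149 and 156, and St14, the protease matriptase, from 2 and 1 to 22 and 20. Elf3, an epithelial transcription factor, was listed at 0 on day 1 and was at 11 and 11 on day 7. Cldn7, a tight-junction protein, and Rab25, a small GTPase of vesicle traffic, were listed at 0 in all 6 libraries up to day 5 and were at 4 and 3 and at 5 and 3 on day 7. Cldn3, a tight-junction strand protein, was at 0 and 1 on day 1 and at 7 and 3 on day 7 (limma, adjusted p = 0.000502, called in 10 of 11 alternatives). Itgb4, the integrin of hemidesmosomes, peaked on day 5 at 529 and 484, from 132 and 131 on day 1, and was at 407 and 409 on day 7. Members without a call include Krt19 (13 and 15, then 11 and 11), Dsp (27 and 27, then 27 and 28) and Cldn4 (5 and 5, then 6 and 4). Krt19 and Cldn4 had a minimum in between: Krt19 was at 4 and 5 on day 3.

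The promoters of the epithelial genes are shown because Snail and Zeb repressors are known to silence such genes through E-boxes of the letters CAGGTG, and the messages of these repressors were measured here. RefSeq windows of 250 bases before to 50 after the start site (GRCm38.p6) were found for 22 of the 36 genes, and CAGGTG was present on either strand in 20 of them (90.9%). Of 27025 genes with a window, 6098 (22.6%) held it. Among the 16 members that rose and have a window, 14 (87.5%) held it, so it was not more frequent in them than in the whole list. Windows are printed only for genes that rose and hold a match before the start. The 250 bases before the start are given here 5′ to 3′ on the strand of the gene, with CAGGTG or its reverse complement in capitals, for Spint2 (chr7:29281978-29282227, minus strand) and Epcam (chr17:87635729-87635978, plus strand).
Spint2: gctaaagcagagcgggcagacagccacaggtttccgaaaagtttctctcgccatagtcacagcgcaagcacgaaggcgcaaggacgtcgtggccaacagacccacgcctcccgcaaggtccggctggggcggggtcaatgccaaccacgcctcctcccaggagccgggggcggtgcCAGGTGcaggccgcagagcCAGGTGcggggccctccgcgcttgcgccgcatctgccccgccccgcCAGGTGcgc
Epcam: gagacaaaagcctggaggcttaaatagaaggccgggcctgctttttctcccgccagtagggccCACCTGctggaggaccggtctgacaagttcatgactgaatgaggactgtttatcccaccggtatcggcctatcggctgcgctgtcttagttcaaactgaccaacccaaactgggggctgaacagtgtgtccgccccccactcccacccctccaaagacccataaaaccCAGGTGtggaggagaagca
Spint2 holds 3 matches, the nearest 9 bases before the start and the farthest 74. Epcam holds 2, at 19 and 187 bases. Snai1, a repressor of Cdh1, fell from 8 and 7 to 2 and 2 (log2 change -1.50, SE 0.21), and Snai2 fell from 17 and 19 to 8 and 8. Zeb1 was at 18 and 19 on day 1 and at 16 and 18 on day 7 (log2 change -0.12, SE 0.11, limma adjusted p = 0.382), and Zeb2 at 20 and 18 and then 22 and 18. The Snail messages thus fell over the week, while those of the Zeb pair passed no test, except that Zeb1 fell after quantile normalization (-0.29). A match of letters is a description and not a measured binding site.

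The mesenchymal regulators were mixed, with 8 of 25 tested rising and 12 falling (median -0.17, or -0.27 without the 1 listed at 0 on a day). Across all genes 32.8% rose and 22.0% fell, so the share that rose was near that of all genes. After quantile normalization 6 rose and 13 fell. Twist1, a helix-loop-helix regulator of mesenchyme, was nearly level, with 180 and 175 on day 1, 158 and 150 on day 3 and then 155 and 161 on day 7. Its log2 change of -0.17 (SE 0.06, limma adjusted p = 0.0298) was called in 6 of 11 alternatives. Prrx1, a homeobox regulator of limb and craniofacial mesenchyme, fell in each step from 120 and 115 to 44 and 47. Thy1, a surface marker of fibroblasts, fell from 94 and 97 to 30 and 32, nearly all of it by day 3. Vim, the intermediate filament vimentin, fell from 4853 and 4956 to 2904 and 2840. In the other direction, Cdh2, the N-cadherin of mesenchymal cells, rose from 102 and 102 to 134 and 145, and Tcf4 rose from 29 and 27 to 53 and 55.

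The pluripotency list rose in part. Of its 34 genes 22 were tested, 14 rose and 1 fell, with a median of 1.42 (1.32 without the 11 listed at 0 on a day). The other 12 were listed at 0 in all 8 libraries. After quantile normalization 12 rose and 4 fell. Tfcp2l1, a transcription factor of naive pluripotency, was listed at 0 on day 1 and was at 30 and 26 on day 7. Gdf3, a ligand of the TGF-beta family, went from 0 in both to 19 and 18. L1td1, an RNA-binding protein, rose from 25 and 20 to 141 and 123. Zfp42, known as Rex1, was listed at 0 on day 1, at 5 and 4 on day 5 and at 7 and 9 on day 7. Nr5a2, an orphan nuclear receptor that binds Pou5f1 regulatory DNA, appeared on day 5 at 1 and 2 and was at 4 and 6 on day 7. Core genes of the network were at or next to 0. Nanog was listed at 0 in all 6 libraries up to day 5 and at 1 and 1 on day 7 (log2 change 1.00, SE 0.27, limma adjusted p = 0.00366), a change of 1 unit that 9 of 10 alternatives called. Sall4 and Dppa5a were listed at 0 in all 8 libraries, and Esrrb was at 1 in 1 library of day 3 and at 0 in the other 7. Dppa3 was listed at 0 in all 8 and was not tested. Klf5 was the 1 member that fell, from 9 and 8 to 5 and 3.

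The factors themselves stayed high. Pou5f1 was at 2314 and 2295 on day 1 and at 2008 and 2144 on day 7 (log2 change -0.15, SE 0.05, limma adjusted p = 0.00801). Sox2 was at 905 and 855 and then 752 and 823 (adjusted p = 0.476), and Klf4 at 635 and 605 and then 596 and 607 (adjusted p = 0.686). The 3 genes together gave 18 and 20 in the untreated MEFs and 3356 to 4084 in the arm, so the factors were present in each library of the course.

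**Figure D2:**
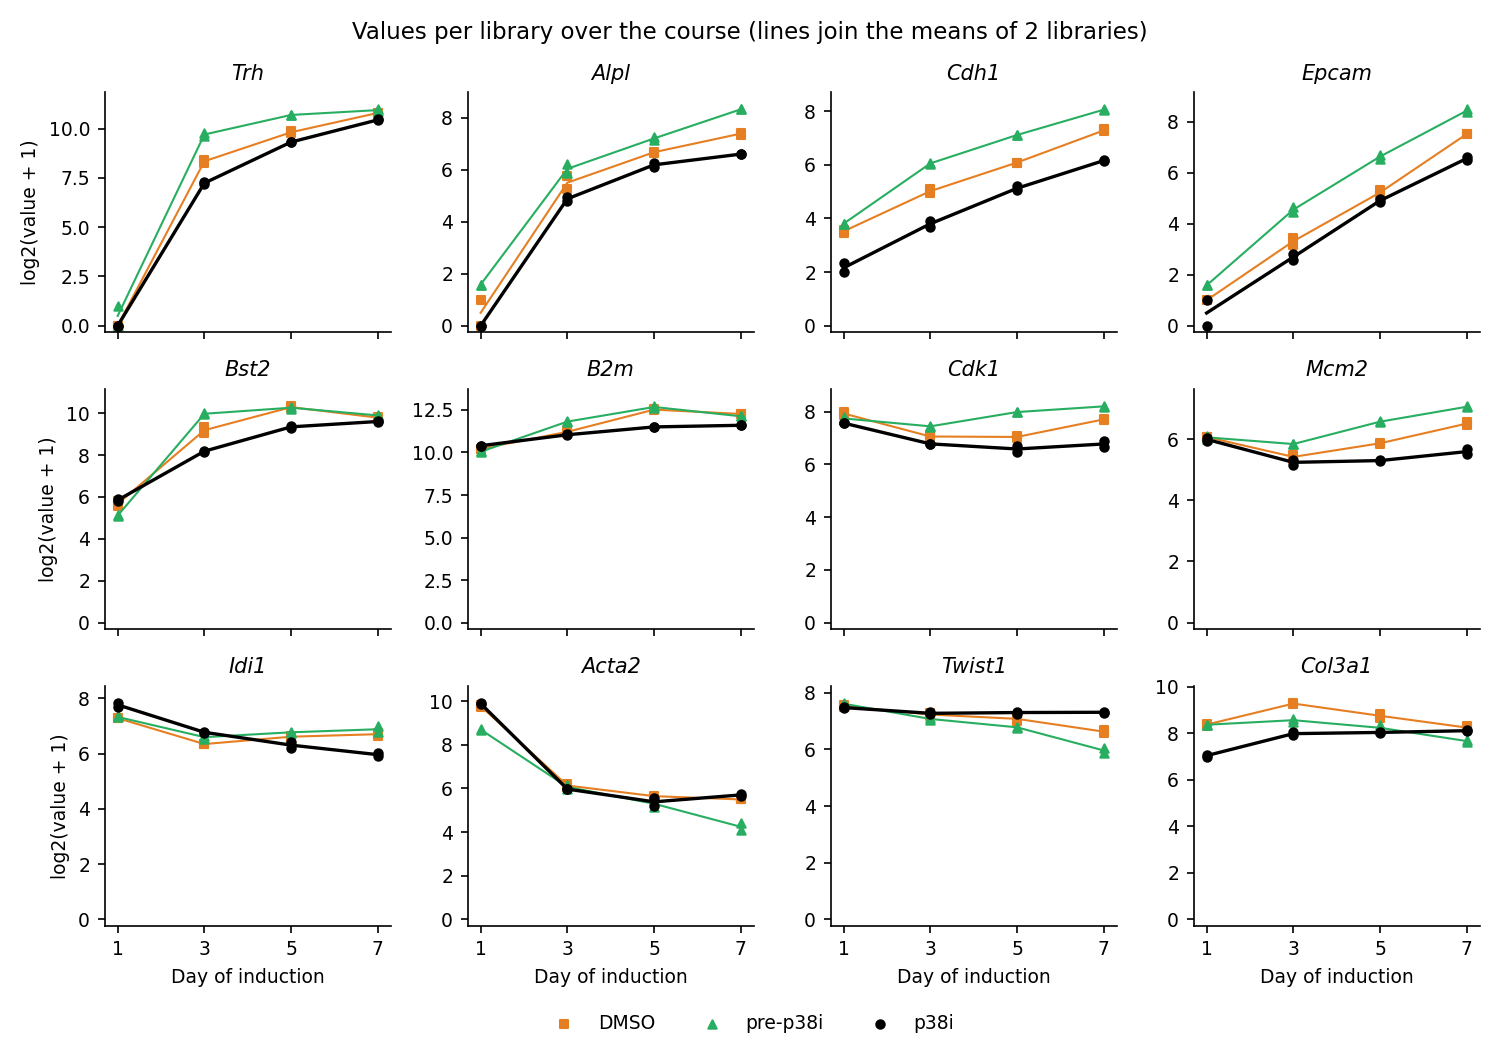
Log2(value + 1) of 12 genes on days 1, 3, 5 and 7, with 1 point per library and lines through the mean of 2 libraries; black circles are p38i, orange squares DMSO and green triangles pre-p38i. In p38i, Trh, Alpl, Cdh1, Epcam and Bst2 climb from day 1 to day 7, Acta2 drops by day 3, Cdk1 drops by day 3 and stays low, Mcm2 drops by day 3 and is slightly higher on day 7 than on day 5, Idi1 falls throughout, and Twist1 stays nearly level.

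Interferon-response genes rose as a block. All 43 members were tested and all 43 rose, against 32.8% of all genes, with a median log2 change of 3.40 (3.26 without the 15 listed at 0 on day 1). Those 15 could not fall. The list was written with earlier results of these data known, so its count is a description. In the alternatives 40 to 43 rose and 0 fell. These genes encode antiviral effectors and are known to be driven by STAT and IRF transcription factors. Bst2, the membrane protein tetherin that holds virus particles on the cell, rose from 54 and 59 on day 1 to 285 and 294 on day 3, 627 and 672 on day 5 and then 788 and 763 on day 7 (log2 change 3.76, SE 0.09, limma adjusted p = 1.95e-17). Isg15, a ubiquitin-like modifier, rose from 6 and 6 to 230 and 201, a level 35.9 times higher. Irgm1, an immunity-related GTPase, rose from 28 and 27 to 229 and 221. Oas2, which makes the 2′-5′ oligoadenylates that activate RNase L, was listed at 0 on day 1, at 27 and 23 on day 3 and at 95 and 80 on day 7, and its relative Oasl2 went from 1 and 0 to 153 and 163. The regulators rose too: Irf7 from 2 and 2 to 76 and 79, Irf9 from 13 and 13 to 89 and 82, and Stat2 from 23 and 20 to 81 and 71. Irf1 rose the least of these, from 8 and 9 to 27 and 22. Tgtp1 (0 and 1, then 145 and 154) has the near-identical copy Tgtp2, so the split of reads between them is uncertain, as it is for Oas1a and Oas1g, Ifit3 and Ifit3b, and Mx1 and Mx2. The list's summed value was 280 and 285 on day 1, 1538 and 1557 on day 3, 3049 and 3010 on day 5 and then 3414 and 3313 on day 7, against 194 and 194 in untreated MEFs.

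Macrophage markers were measured beside this list because macrophages can make such transcripts. Of 15 tested, 3 rose and 3 fell (2 and 5 after quantile normalization). Their sum was 226 and 237 on day 1 and 315 and 273 on day 7, and 358 to 382 in untreated MEFs. Ptprc, Aif1 and Cx3cr1 were listed at 0 in the 8 libraries, and Csf1r was at 1 and 2 and then 0 and 1. Laptm5, a lysosomal membrane protein of blood cells, rose from 16 and 16 to 71 and 57, while Fcer1g fell from 13 and 17 to 5 and 6. Their part in the rise of the interferon list was not tested.

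The promoters of the interferon genes are shown because the element through which they are known to respond, with a core of TTTC repeated after 2 further bases, can be read in them. Windows were found for 31 of the 43 genes, and 21 (67.7%) held this core on either strand, against 1079 of 27025 genes (4.0%). The 250 bases before the start are given for Isg15 (chr4:156200819-156201068, minus strand) and Irgm1 (chr11:48871421-48871670, minus strand), GRCm38.p6, 5′ to 3′ on the strand of the gene, with matches in capitals. Matches can overlap.
Isg15: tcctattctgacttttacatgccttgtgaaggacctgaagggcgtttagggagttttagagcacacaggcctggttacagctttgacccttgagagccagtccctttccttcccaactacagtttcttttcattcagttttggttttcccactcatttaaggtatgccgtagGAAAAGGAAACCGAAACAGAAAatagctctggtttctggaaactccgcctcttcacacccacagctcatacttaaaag
Irgm1: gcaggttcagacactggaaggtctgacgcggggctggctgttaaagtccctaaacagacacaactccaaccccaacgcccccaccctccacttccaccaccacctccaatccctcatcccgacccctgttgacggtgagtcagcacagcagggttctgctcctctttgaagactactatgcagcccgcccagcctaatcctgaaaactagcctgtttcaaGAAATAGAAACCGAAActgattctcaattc
In Isg15, 3 overlapping matches lie 66 to 78 bases before the start, and in Irgm1 2 lie at 24 and 30 bases.

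MHC class I genes, which present peptides to T cells, rose together with their processing machinery. Of 19 members tested 19 rose, against 32.8% of all genes (median 2.04, or 1.57 without the 2 listed at 0 on a day). After quantile normalization 17 rose. B2m, the light chain, rose from 1353 and 1343 to 3113 and 3094, and the heavy chain H2-K1 from 90 and 98 to 483 and 437. Tap1, a peptide transporter, rose from 7 and 5 to 29 and 31. Psmb8, a subunit of the immunoproteasome, rose from 0 and 1 to 19 and 17, and its partner Psmb9 was listed at 0 on day 1 and was at 6 and 10 on day 7. H2-K1 rose in each step, while Tap1 was level from day 5 on. The class I heavy chains have near-identical copies, so the values of H2-K1, H2-D1, H2-Q4, H2-Q6, H2-Q7, H2-T22 and H2-T23 are uncertain.

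**Figure D3:**
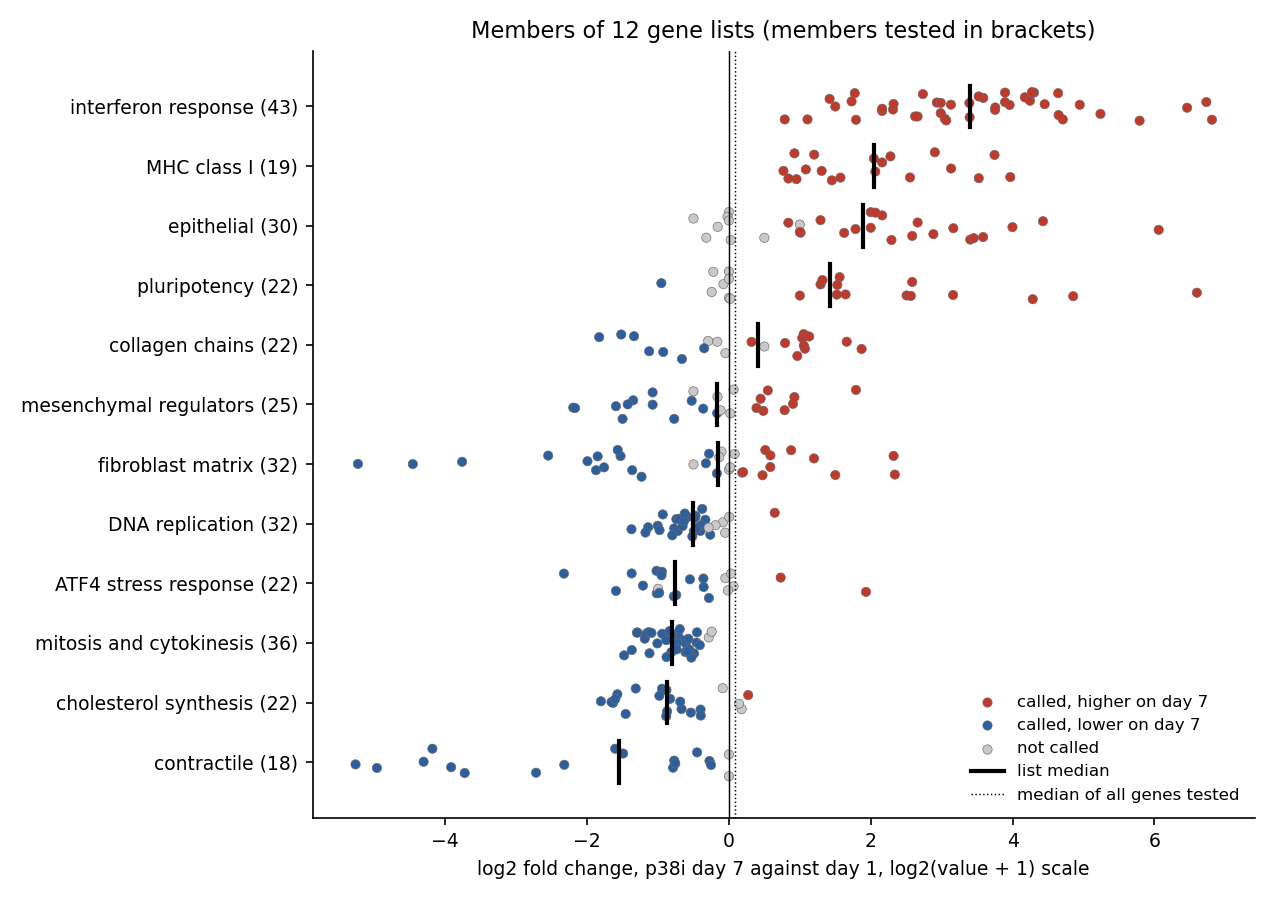
Log2 fold change of p38i day 7 against day 1 for the tested members of 12 gene lists, 1 point per gene, with red for genes that rose, blue for genes that fell and grey for genes without a call; vertical bars are list medians and the dotted line is the median of all genes (0.09). All 43 interferon-response genes lie right of 0, and no contractile or mitosis gene rose.

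Contractile genes fell. Of 18 tested, 16 fell and 0 rose (median -1.55, with and without the 4 listed at 0 on a day), and the other 2, Lmod1 and Myh11, were listed at 0 in the arm, although quantile normalization gave 18 calls. In all genes 22.0% fell. Acta2, the smooth-muscle actin of stress fibres in activated fibroblasts (chr19:34241090-34255336), fell from 922 and 964 to 62 and 61 on day 3, 46 and 36 on day 5 and then 52 and 50 on day 7. The fall was 18.5-fold over the week, with most of it by day 3, and the last step gave no call. Tagln, an actin-binding protein known as SM22, fell from 872 and 883 to 23 and 32 (log2 change -4.96, SE 0.13, limma adjusted p = 1.11e-16), and Cnn1, calponin, from 36 and 39 to 0 and 0. Tpm2, a tropomyosin, fell in each step from 367 and 353 to 30 and 23. The smallest falls that were called were those of Myh9 and Vcl: Myh9, the nonmuscle myosin heavy chain, went from 256 and 256 to 209 and 214, and Vcl, vinculin, from 110 and 106 to 90 and 91. 

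Extracellular matrix split in both directions. In the list of fibroblast matrix genes 11 of 32 rose and 15 fell (median -0.15, or -0.17 without the 3 listed at 0 on a day), and among collagen chains 11 of 22 rose and 7 fell (median 0.41). Across all genes 32.8% rose and 22.0% fell, so the share of matrix genes that rose was near that of all genes. After quantile normalization 9 matrix genes rose and 17 fell, and 8 collagens rose and 9 fell. The collagens that fell include the fibrillar Col1a1, from 969 and 981 to 270 and 277, and Col5a2, from 205 and 205 to 78 and 83. Col1a2, the partner of Col1a1 in the same triple helix, fell later, with 1088 and 1080 on day 1, 1105 and 1072 on day 3 and then 673 and 697 on day 7. Those that rose include the basement-membrane chains Col4a1, from 240 and 221 to 469 and 491, Col4a2, from 230 and 227 to 442 and 452, and Col18a1, from 33 and 32 to 120 and 123. Col3a1, a fibrillar chain of soft tissue, rose from 127 and 134 to 270 and 281. Bgn, the proteoglycan biglycan, fell from 1132 and 1209 to 79 and 92, and Fn1, fibronectin, from 1562 and 1577 to 677 and 658. Lox, which cross-links collagen, fell from 286 and 279 to 45 and 50, and was already at 47 and 47 on day 3. Lum, the proteoglycan lumican, rose from 9 and 11 to 56 and 53, and Dcn, decorin, from 157 and 162 to 225 and 231. Spp1, osteopontin, was at 720 and 737 on day 1, 1288 and 1272 on day 3 and then 765 and 711 on day 7, which gave no call over the week. Of 19 matrix proteases and inhibitors 7 rose and 7 fell (6 and 9 after quantile normalization), among them Mmp12, a macrophage elastase, which rose from 4 and 6 to 25 and 28. The fibroblast markers summed to 3433 and 3471 on day 1 and 1822 and 1857 on day 7, against 9348 and 9230 in untreated MEFs. Of these 10, 6 fell and 3 rose (Col3a1, Dcn and Lum).

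Cell-cycle genes fell. Of 36 genes of mitosis and cytokinesis 34 fell and 0 rose, with a median of -0.80, and of 32 genes of DNA replication 26 fell and 1 rose, with a median of -0.51. Over the alternatives, 30 to 36 of the mitosis genes and 17 to 27 of the replication genes fell, with the 17 in the fit of the 2 groups alone. Cdk1, the mitotic kinase, was at 190 and 188 on day 1, 110 and 108 on day 3, 104 and 87 on day 5 and then 101 and 117 on day 7 (log2 change -0.79, SE 0.08, limma adjusted p = 5.53e-08). Birc5, survivin of the chromosomal passenger complex, fell from 123 and 102 to 48 and 38, and Cenpe, a kinesin of the kinetochore, from 19 and 18 to 6 and 6. Anln, anillin of the contractile ring, fell from 86 and 92 to 38 and 39, Ect2, which activates RhoA for cytokinesis, from 30 and 32 to 20 and 20, and Racgap1, its partner at the spindle midzone, from 68 and 71 to 41 and 36. Cit, citron kinase of the midbody, was at 5 and 6 and then 5 and 4, with no call. Rrm2, a subunit of ribonucleotide reductase, fell from 219 and 213 to 96 and 94, and Mcm2 of the replicative helicase from 65 and 61 to 50 and 45. Dut, which breaks down dUTP, was the replication gene that rose, from 74 and 71 to 116 and 112.

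The G1 regulators were mixed, with 7 of 20 rising and 6 falling (6 and 8 after quantile normalization). Across all genes 32.8% rose and 22.0% fell. The shares that rose in this list and among the p53 targets below were near that of all genes. Ccne1, cyclin E1, fell from 64 and 77 to 23 and 23. Cdkn2a, the locus of p16 and Arf, rose from 198 and 193 to 365 and 397 on day 3 and then 374 and 402 on day 7, and Cdkn1b, p27, from 13 and 14 to 25 and 24. Cdkn1a, the inhibitor p21, was level at 771 and 758 and then 767 and 743. Of 23 p53 targets 8 rose and 8 fell: Sesn1, a stress-induced sestrin, rose from 13 and 13 to 31 and 33, and Mdm2, the ligase of p53, fell from 200 and 195 to 140 and 139. Trp53 itself was at 144 and 150 on day 1 and 141 and 137 on day 7 (log2 change -0.08, SE 0.07, limma adjusted p = 0.319).

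Genes of sterol synthesis fell in a stepwise manner. Of 22 tested, 18 fell and 1 rose, Dhcr7, with a median of -0.88. Idi1, the isopentenyl-diphosphate isomerase, was at 207 and 228, 107 and 110, 73 and 84, and 59 and 64 on the 4 days. Fdps, which makes farnesyl diphosphate, went from 716 and 741 to 384 and 406, 284 and 290, and 243 and 225. Each fell in every step. Srebf2, a transcription factor that drives sterol genes, was at 107 and 114 and then 123 and 121, with no call. Of 12 genes of fatty acid synthesis 6 fell and 3 rose. Fasn, the synthase, fell from 300 and 286 to 163 and 164, and Srebf1, a regulator of this pathway, rose from 78 and 80 to 235 and 267.

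The targets of ATF4, the transcription factor of amino-acid and stress responses, also fell, in 15 of 22 tested against 2 that rose (median -0.76). Phgdh, the first enzyme of serine synthesis, fell from 312 and 313 to 81 and 79 on day 3 and then 62 and 61 on day 7 (log2 change -2.33, SE 0.06, limma adjusted p = 1.05e-16). Asns, asparagine synthetase, fell from 191 and 203 to 96 and 97. Ddit4, which restrains mTORC1, rose from 35 and 35 to 139 and 134. Atf4 itself was at 206 and 200, 126 and 141 on day 3, and 204 and 211 on day 7. Of 26 genes of glycolysis and the hypoxia response 9 rose and 13 fell, against 32.8% and 22.0% of all genes. Vegfa, a growth factor for vessels, fell from 29 and 23 to 8 and 7. Eno1, Gapdh and Pgk1 fell in this list but have near-identical copies. Stretches near-identical to other transcripts were also found in Idi1, Msmo1, Fosl1, Chrna1 and Dppa5a. Of 29 respiratory-chain genes encoded in the nucleus 8 fell and 2 rose, and this count went to 4 and 7 under quantile normalization.

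The counts of the signalling lists stand beside the 32.8% of all genes that rose and the 22.0% that fell. Of 20 genes of the p38 cascade 7 rose and 8 fell. Mapk14, which encodes p38 alpha, fell from 51 and 55 to 45 and 41 (log2 change -0.30, SE 0.07, limma adjusted p = 0.00213). Map2k6, a kinase that activates p38, rose from 11 and 11 to 26 and 27, and Mapkapk2, its main substrate kinase, from 80 and 84 to 106 and 108. Mapk13, p38 delta, fell from 37 and 39 to 19 and 17. Of 14 feedback regulators of MAP kinases 9 rose and 4 fell. Dusp6, an ERK phosphatase, rose from 29 and 31 to 98 and 101, and Dusp5 fell from 33 and 35 to 14 and 12. Of 16 AP-1 and immediate early genes 4 rose and 5 fell: Fosl1 fell from 68 and 69 to 18 and 17 and Jund rose from 146 and 149 to 318 and 292. Of 23 TGF-beta pathway genes 9 rose and 8 fell (6 and 9 after quantile normalization). The ligand Tgfb1 fell from 86 and 84 to 26 and 20, and Tgfb2 rose from 5 and 5 to 14 and 19. Of 17 BMP pathway genes 8 rose and 3 fell, with the antagonist Fst, follistatin, going down from 151 and 155 to 25 and 26 and Id3 up from 13 and 11 to 29 and 31. Of 12 targets of YAP and SRF 8 rose and 3 fell (5 and 4 under quantile normalization), with Ctgf, a matricellular protein, rising from 190 and 161 to 451 and 466. Of 21 cytokines and chemokines 6 rose and 8 fell. Ptgs2, the inducible cyclooxygenase, fell from 70 and 69 to 15 and 14, Il11 from 6 and 7 to 0 and 0, and the chemokine Ccl2 rose from 87 and 100 to 326 and 348.

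Further groups held single members that moved. Of 32 lysosome genes 10 rose and 13 fell over the week, yet 17 rose and 7 fell between days 1 and 3. Across all genes 32.8% rose and 22.0% fell over the week, and 20.0% rose and 21.9% fell between days 1 and 3. The lysosome shares that rose over the week and that fell by day 3 were near these. Ctsd, cathepsin D, was at 1950 and 2010, then 2745 and 2690 on day 3 and then 1713 and 1686 on day 7. Of 18 imprinted growth genes 7 rose and 8 fell (4 and 9 after quantile normalization). H19, a noncoding RNA, rose from 143 and 135 to 677 and 762, while its neighbour Igf2, a growth factor, fell from 711 and 741 to 300 and 307. Of 7 genes of DNA methylation and its removal 4 rose and 2 fell, with Dnmt3a rising from 8 and 9 to 23 and 27 and Dnmt1 falling from 68 and 71 to 52 and 56. Of 5 metallothionein genes 3 rose, among them Mt2, from 1137 and 1183 to 1935 and 1861. Of 17 epidermal and squamous genes 5 rose and 5 fell. Trp63, the regulator of stratified epithelia, was listed at 0 on days 1 and 3 and was at 3 and 4 on day 7, and Krt6a, which has a near-identical copy, fell from 8 and 8 to 1 and 1.

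Most endothelial, neural, muscle and extraembryonic markers did not pass the filter. Of the 10 endothelial markers, Pecam1, Tie1, Emcn, Cldn5 and Erg were listed at 0 in the 8 libraries of the arm. Of the 4 tested, Tek, the angiopoietin receptor, rose from 11 and 13 to 67 and 61, and Kdr and Egfl7 fell. Of 4 neural and glial markers tested 1 rose and 2 fell, Tubb3 and Stmn2, while Sox10 and Dcx did not pass the filter. In the trophoblast and extraembryonic endoderm list 0 of 3 tested changed, and Chrna1, the 1 skeletal muscle marker tested, fell from 16 and 18 to 11 and 10.

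Most of the change fell in the first step. From day 1 to day 3, 5543 genes (41.9%) changed, with 2644 up (20.0%) and 2899 down (21.9%). From day 3 to day 5, 2087 (15.8%) changed, with 1571 up (11.9%) and 516 down (3.9%), or 970 and 785 under quantile normalization. From day 5 to day 7, 824 (6.23%) changed, with 555 up (4.2%) and 269 down (2.03%), or 488 and 477 under quantile normalization. The root mean square change was 0.67, 0.424 and 0.347 in the 3 steps. Without replicate 2 of day 5, the library that stood apart, 1600 genes changed in the second step and 499 in the third. In the fit of the 2 groups of a step alone, these counts were 585 and 150.

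The lists differed in when they moved. Interferon genes rose early, with 39 of 43 called by day 3, 36 in the second step and 0 in the third. The medians of the 3 steps were 2.32, 0.97 and 0.15. The epithelial list moved throughout, with 10 rising and 2 falling in the first step, 14 rising in the second and 14 rising and 1 falling in the third, and its medians were 0.40, 0.45 and 0.60. The pluripotency list had 9 genes rise and 3 fall in the first step, and 10 and then 4 rise in the later ones. Contractile genes had 16, 5 and 3 fall, with 0, 1 and 1 rising, and mitosis genes had 34 fall in the first step and 2 in the second, while 5 rose in the third. These 5 were Ccna2, Top2a, Cenpa, Nuf2 and Cdca8, and Top2a, the topoisomerase of replicated chromosomes, was at 89 and 87, 49 and 53, 57 and 48, and 63 and 69. Mcm2 and Rrm1 of the replication list turned in the same way. Sterol genes had 17, 9 and 10 fall.

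**Figure D4:**
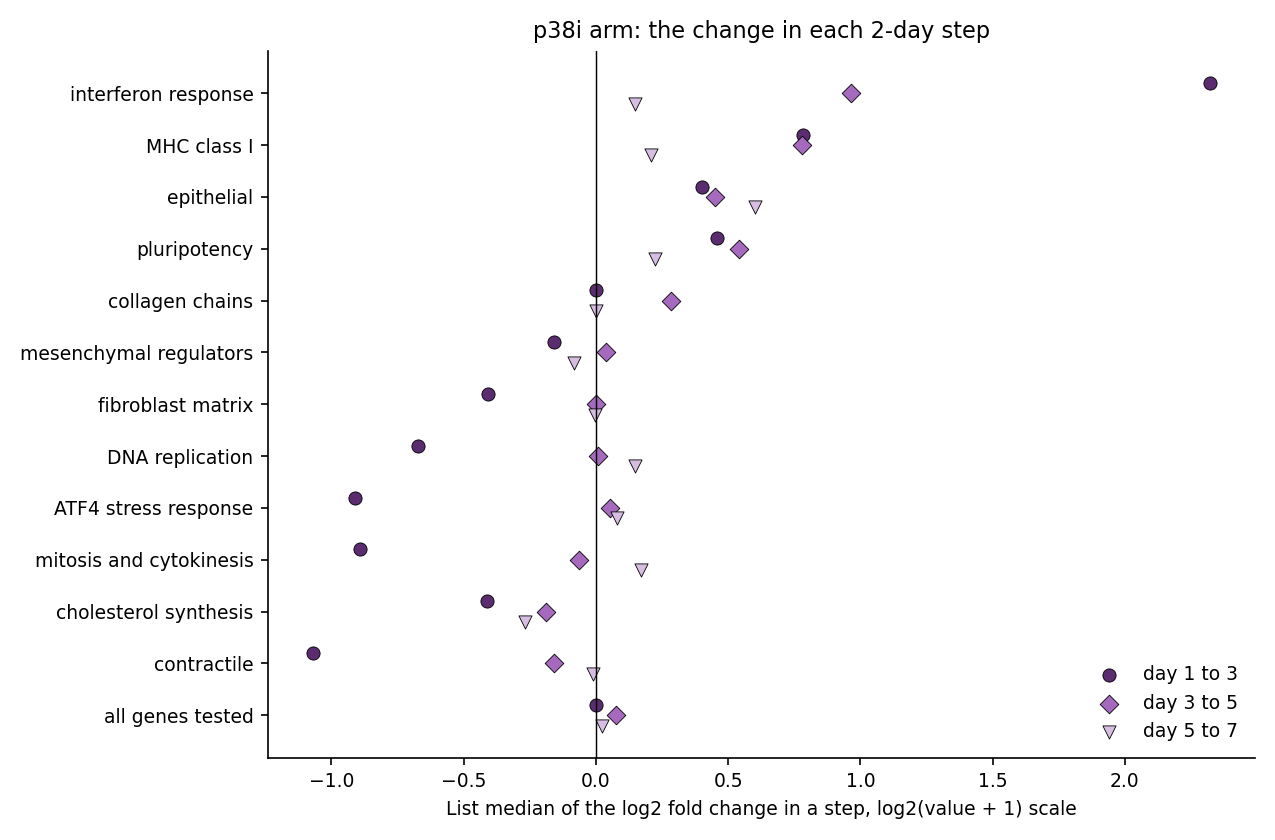
Median log2 fold change of each of 12 lists, and of all genes, in the steps from day 1 to 3 (circles), 3 to 5 (diamonds) and 5 to 7 (triangles) of the p38i arm. The interferon list moves by 2.32 in the first step and 0.15 in the last, the epithelial list by 0.40 and 0.60, and the mitosis list by -0.89 and 0.17.

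Genes that led the single steps add to this order. Trh (adjusted p = 8.18e-17 by limma), Oasl2 and Alpl rose most from day 1 to day 3, and Tagln, Cnn1 and Myl9 fell most. Myl9, the regulatory light chain of smooth-muscle myosin, dropped from 144 and 155 to 6 and 12. From day 3 to day 5, Tac2, a neurokinin precursor, rose from 0 in both libraries to 16 and 16, and it was at 47 and 46 on day 7. Lbp, which binds lipopolysaccharide, rose from 1 and 0 to 13 and 9, and Clec3b from 8 and 9 to 74 and 60. S100a4, a calcium-binding protein of fibroblasts, fell from 308 and 333 to 108 and 106, after 1520 and 1439 on day 1. From day 5 to day 7, Nkd1, an antagonist and target of Wnt signalling, rose from 3 and 4 to 30 and 19, and Gbx2, a homeobox gene also expressed in pluripotent cells, from 1 and 2 to 10 and 10. Gm2000, a near-identical copy of Rpl35, gave calls in both late steps, at 4 and 0 on day 5 and then 11 and 20 on day 7. The genes that fell most in the last step, Rn7s1, Rn7s2 and Rn18s-rs5, rest on replicate 2 of day 5, where Rn7s1 was at 367 against 5 in replicate 1. Rn7s1 and Rn7s2 are near-identical to each other.

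The first and the last step share no library and were compared gene by gene. Of the 555 genes that rose from day 5 to day 7, 156 (28.1%) had risen from day 1 to day 3 and 155 (27.9%) had fallen then, against 20.0% and 21.9% of all genes. Of the 269 that fell in the last step, 113 (42.0%) had fallen in the first and 80 (29.7%) had risen in it. As shares of the first step's calls, 156 is 5.9%, 155 is 5.35%, 113 is 3.9% and 80 is 3.03%. The 9 sterol genes Hmgcs1, Mvd, Idi1, Fdps, Fdft1, Sqle, Lss, Msmo1 and Nsdhl fell in both steps. The lysosome genes Lamp1, Ctsa, Ctsd, Ctsl, Hexa, Npc2, Gpnmb and Atp6ap1 rose and then fell, as did the cyclins Ccnd1, Ccnd2 and Ccnd3.

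The same week was then set beside that of the other arms, with the difference between the changes tested in the model. The change differed from that of DMSO cells for 2863 genes (21.6%), higher in p38i for 1864 (14.1%) and lower for 999 (7.55%), or 1604 and 1297 under quantile normalization. Against pre-p38i cells it differed for 5359 genes (40.5%), higher for 3034 (22.9%) and lower for 2325 (17.6%). Both tests use the same p38i libraries, so they are not independent of each other.

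From day 1 to day 7, the change of cell-cycle genes was lower in p38i than in either other arm. For mitosis, the change was lower than in DMSO for 32 of 36 genes and lower than in pre-p38i for 36 of 36. The list medians were -0.80 in p38i, -0.13 in DMSO and 0.53 in pre-p38i. Cdk1 started at 234 and 254 in DMSO and ended at 207 and 210, and in pre-p38i it went from 222 and 206 to 292 and 296. The replication list was lower for 27 of 32 against DMSO and 29 of 32 against pre-p38i, with medians of -0.51, 0.27 and 0.50. Sterol genes fell more than in DMSO for 13 of 22 and ATF4 targets for 13 of 22. The levels of day 1 also differed between the arms: Fdps was at 716 and 741 in p38i and 521 and 520 in DMSO on that day, and at 243 and 225 against 266 and 276 on day 7.

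By list medians, fibroblast matrix and mesenchymal genes fell less in p38i, while collagen chains rose there and fell in DMSO. Of 32 fibroblast matrix genes, the change was higher in p38i than in DMSO for 24 and lower for 2, and of 22 collagens it was higher for 15 and lower for 0. List medians were -0.15 against -1.11 for the matrix and 0.41 against -0.33 for the collagens. The summed value of the collagens on day 1 was lower in p38i, at 3651 and 3644 against 5622 and 5226 in DMSO. On day 7 it was 3494 and 3565 against 3303 and 3463. Tnc, tenascin C, fell from 200 and 188 to 57 and 56 in p38i and from 303 and 298 to 18 and 22 in DMSO. Col3a1 was at 341 and 320 and then 292 and 313 in DMSO, above p38i cells on day 1 and closer to their 270 and 281 on day 7. Twist1 ended at 155 and 161 in p38i, with 94 and 102 for DMSO and 65 and 58 for pre-p38i, from 180 and 175, 189 and 179, and 191 and 199 on day 1. Its change was 0.74 higher than in DMSO and 1.48 higher than in pre-p38i. Contractile genes had medians of -1.55, -1.86 and -1.67, with 5 of 18 higher and 1 lower than in DMSO. Acta2 gave no call against DMSO (difference 0.09, 95% interval -0.22 to 0.41, limma adjusted p = 0.718).

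Pluripotency genes rose less, with 11 of 22 lower than in DMSO and 11 of 22 lower than in pre-p38i, and 0 higher in both. These counts include genes such as Dppa5a and Esrrb, listed at 0 on days 1 and 7 of p38i. They passed the filter through the other arms, where they were also listed at 0 on day 1. Such genes could not come out higher in p38i. Nanog reached 12 and 16 in DMSO and 28 and 28 in pre-p38i, against 1 and 1 here, and Sall4 reached 8 and 8 and 11 and 9, against 0 and 0. Other genes of the week gave no call. The change of Trh differed from that in DMSO by -0.35 (95% interval -0.86 to 0.16, limma adjusted p = 0.339) and that of Tfcp2l1 by -0.37 (-0.97 to 0.23, adjusted p = 0.394). The epithelial list also rose less by its medians, which were 1.89 in p38i, 2.56 in DMSO and 3.30 in pre-p38i. Its summed value on day 7 was 1260 and 1242 in p38i, 1789 and 1722 in DMSO and 2298 and 2360 in pre-p38i. Of its 30 tested members, the change was lower than in DMSO for 6 and higher for 2. Against pre-p38i it was lower for 20 and higher for 2. The change of Cdh1 was 0.24 higher than in DMSO (95% interval -0.05 to 0.52, limma adjusted p = 0.235). On day 1 DMSO cells were at 10 and 11 and p38i cells at 3 and 4. Its day 7 levels were 159 and 151 in DMSO and 71 and 70 in p38i. Cldn4 rose from 4 and 4 to 38 and 27 in DMSO and was at 5 and 5 and then 6 and 4 in p38i.

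Interferon genes rose in all arms, with medians of 3.40 in p38i, 3.80 in DMSO and 3.99 in pre-p38i, and the change was lower than in DMSO for 9 of 43 and higher for 3. MHC class I genes separated more, being lower than in DMSO for 12 of 19 and lower than in pre-p38i for 19 of 19. H2-K1 rose from 80 and 83 to 1476 and 1338 in DMSO, against 90 and 98 to 483 and 437 in p38i, and Psmb8 reached 134 and 106 against 19 and 17. The change of Mt2 was 1.51 lower than in DMSO, where it rose from 387 and 358 to 1745 and 1724. The p38i level of Mt2, given above, was higher than that of DMSO on both days. The summed metallothionein list was at 2809 and 2864 in p38i on day 1, against 1027 and 1031 in DMSO. On day 7 it was at 3892 and 3675 against 3194 and 3148. Lysosome genes went the other way, with the change higher in p38i than in DMSO for 18 of 32 and lower for 0.

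**Figure D5:**
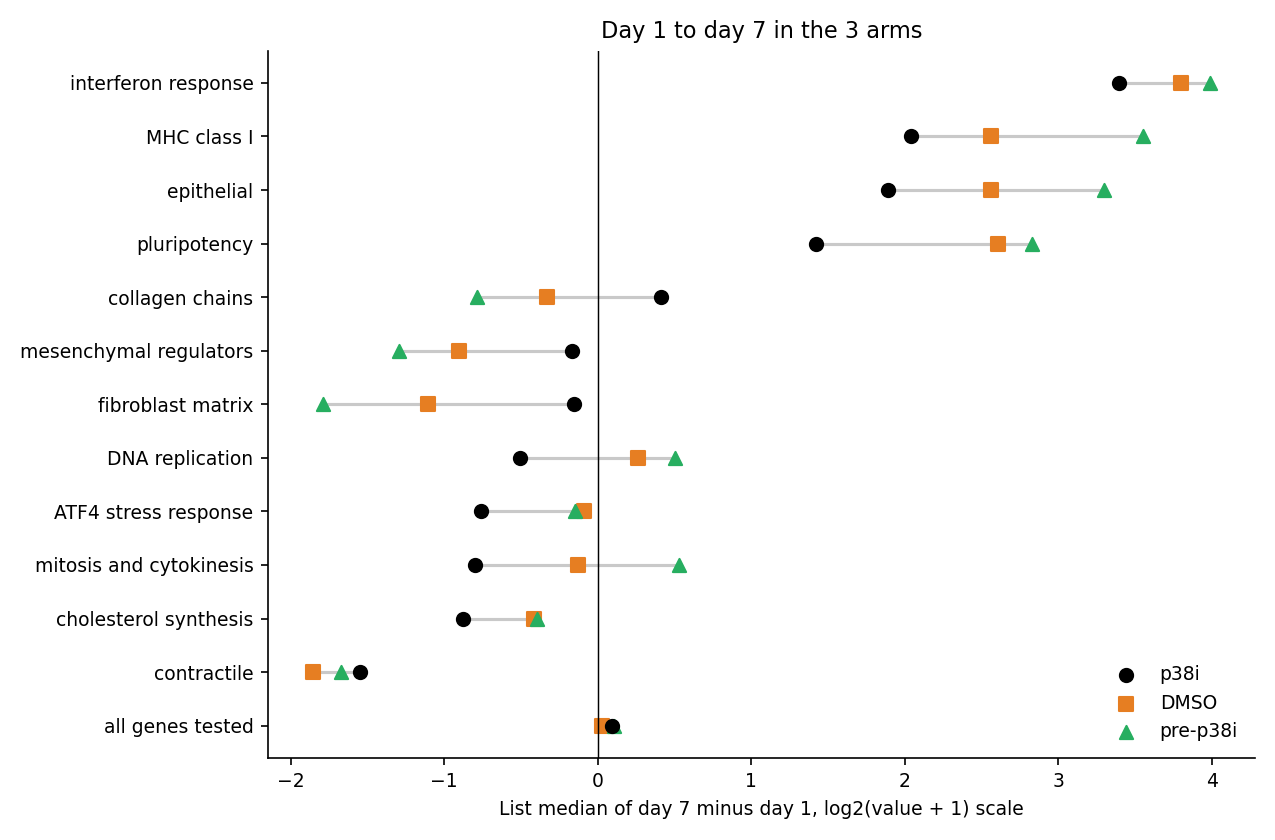
Median of day 7 minus day 1 on the log2(value + 1) scale for 12 lists and all genes in p38i (black circles), DMSO (orange squares) and pre-p38i (green triangles). The p38i medians lie below those of the other arms for epithelial, pluripotency, interferon, MHC class I, mitosis, replication, sterol and ATF4 genes. They lie above them for matrix, collagen, mesenchymal and contractile genes.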

How the data were processed

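Poly(A) RNA of 28 mouse libraries in 14 groups of 2 was sequenced by the study: MEFs without induction, with and without p38i, and the DMSO, p38i and pre-p38i arms on days 1, 3, 5 and 7. The labels name TRIzol and a VAHTS kit, and the submitters' processing notes name bcl2fastq, Bowtie2 2.2.5 and RSEM 1.3.0 with the builds mm10 and hg38. The authors deposited 1 table of whole numbers per gene, recorded here as a score: the sums of 991287 to 992537 per library are what TPM values with the decimals dropped would give, which the sources used here do not state. Read counts were not analysed here, so count models were not used, and changes at values of a few units are coarse.

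Values were tested as log2(value + 1) with limma 3.58.1 (empirical Bayes with a trend) in R 4.3.3, in 1 model of all 14 groups with no block, on the 13230 of 50600 genes whose mean across the 28 libraries reached 1. P-values were adjusted by Benjamini-Hochberg over all genes tested, with a threshold of 0.05. The fit was tested on simulated data. Genes were named by the size of their change where they were called, averaged 5 or more in the libraries compared and did not overlap between the days, 10 per direction over the week and 3 in each other comparison, and 786 genes were written into 37 lists, of which 779 were in the table. The comparison and the lists were chosen with earlier results of these data known. Near-identical copies were searched with BLAST 2.17.0 among transcripts of 805 genes at 95% identity over 200 bases. Promoter windows came from RefSeq on GRCm38.p6. As alternatives, the pseudocount was set to 0.1, the filter was left out or raised to 5, and the fit was made with fewer groups, with a replicate block, after quantile normalization, with a minimum log2 change of 1 and without each library in turn. None of the columns lacked a sample. Some genes that the rule names are not reported here.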

Additional observations from a re-analysis of the deposited data

Results flagged for a closer look

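The change from day 1 to day 7 differed between p38i and DMSO for 2863 genes and between p38i and pre-p38i for 5359 genes, by limma's test of the difference itself. Of the genes named by rule against DMSO, the change was higher in p38i for Gm20388 by 5.37 on the log2 scale, for Gm17349 by 3.20 and for Plac9b by 2.46. Gm20388 went from 0 and 0 to 16 and 22 in p38i and from 24 and 20 to 11 and 9 in DMSO, and it overlaps Galnt2. Its difference had an SE of 1.84 (limma, adjusted p = 0.0435). Gm17349, which overlaps Smarcd1, went from 3 and 1 to 6 and 13 in p38i. In DMSO it went from 7 and 5 to 6 and 0, so its replicates on day 7 were far apart. Plac9b, which has a near-identical copy, fell from 26 and 24 to 10 and 9 in p38i and from 39 and 36 to 7 and 0 in DMSO.

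The change was lower in p38i for Cd209f (-5.44), Cd209g (-5.28) and Dppa5a (-4.74). Each was listed at 0 in p38i on days 1 and 7 and at 0 on day 1 of the other arms. They passed the filter through the other arms, so they could not come out higher in p38i. Cd209f and Cd209g, C-type lectins of the DC-SIGN family, were listed at 0 in the p38i libraries of both days and reached 46 and 39, and 39 and 37, on day 7 of DMSO. Dppa5a, an RNA-binding protein of pluripotent cells, was listed at 0 in p38i and reached 22 and 30 in DMSO and 50 and 41 in pre-p38i.

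Against pre-p38i, the change was higher in p38i for Gm20388 (5.19), Mmp10 (3.93) and Gpc3 (3.66) and lower for Gm37167 (-9.40), Gm38226 (-6.60) and Mylpf (-5.74). Mmp10, stromelysin 2, rose from 2 and 3 to 11 and 10 in p38i and went from 14 and 16 to 3 and 2 in pre-p38i. Gpc3, a glypican, was at 7 and 9 and then 11 and 10 in p38i, against 61 and 65 and then 6 and 5. Mylpf, a myosin light chain of fast muscle, was at 3 and 4 and then 4 and 4 in p38i and rose from 1 and 0 to 80 and 87 in pre-p38i. Gm37167 and Gm38226 have near-identical copies, and their replicates on p38i day 7 were far apart, at 18 and 0 and at 10 and 0.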

How the results depend on the processing

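For the week as a whole, most values for named genes, with or without a call, stayed on their side of the threshold. This held for 527 values, while 24 lost the call, 6 gained one and 1 reversed (Gm38226, from -0.06 to 1.67 without p38i day 7 replicate 2 and to -1.79 without replicate 1). The 527 include genes without a call whose sign changed, such as Gm2000 (0.20, and -0.21 to 0.60 over the alternatives). Of the counts for lists, 399 stayed within 1.5 times and 8 did not. A minimum log2 change of 1 left 2381 genes for day 1 to day 7, 1296, 406 and 158 for the 3 steps, 617 for the difference from DMSO and 1969 for that from pre-p38i. With only the groups compared in the fit, day 1 to day 7 had 5589 calls, and the 3 steps had 3809, 585 and 150. With only the p38i arm in the fit, day 1 to day 7 had 6575 and the step from day 5 to day 7 had 327. Leaving out each library in turn gave 6154 to 6266 calls for day 1 to day 7, 4473 to 4655 for the first step, 1148 to 1600 for that from day 3, 360 to 499 for that from day 5, 2083 to 2568 against DMSO and 4688 to 4900 against pre-p38i, with the lone sample of a day assumed to vary like the other groups. In these later steps the fit without p38i day 5 replicate 2 gave 1600 and 499, and that without p38i day 5 replicate 1 gave 1148 and 410. Without replicate 1 or 2 of day 3 the step from day 3 had 1276 and 1367 calls, and without replicate 1 or 2 of day 7 the step from day 5 had 380 and 360. Fewer samples enter these fits; beyond that, the cause was not tested. Quantile normalization moved the share of higher calls from 59.9% to 45.0% for the week, from 75.3% to 55.3% from day 3 to 5 and from 67.4% to 50.6% from day 5 to 7. The replicate block gave 4288 higher and 2839 lower calls for the week. Same-numbered samples did not deviate together (correlations of -0.0573 to 0.0761), so no pairing by number was seen. Whole-number values are coarse for low genes, so these correlations cannot exclude that same-numbered samples share an origin. The depth is unknown, so genes listed at 0 may still be expressed.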
